A study of Homo sapiens with 4 samples.

Results

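The distal summit clusters of enzalutamide-resistant LNCaP cells are stretches of the genome where several accessible sites lie close together, away from the ends of genes. They were chosen by the scores of the ATAC-seq summits of the resistant cells. In each of the 2 resistant libraries, the 20000 highest-scoring summits more than 3 kb from either end of every RefSeq gene were taken, and summits at most 12500 bp apart were stitched. A stretch was kept when it held at least 4 summits and overlapped a kept stretch of the other resistant library. This gave 70 clusters, from 128 kept stretches of 16777 in LNCaP-resistance replicate 1 and 112 of 16821 in replicate 2. Stitching the 20000 summits of all 4 libraries together gave 28925 stretches in the whole series. The clusters were between 10311 and 57427 bp long, with a median of 20949 bp, and covered 1.66 Mb together.

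Most clusters lay just inside the threshold. Of the 70, 38 held exactly 4 taken summits in both resistant libraries and 52 held 4 in at least 1 of them, whereas 7 held 6 or more in both. Just outside it, the libraries had 392 and 371 stretches of 3 summits. Another 58 kept stretches of replicate 1 and 42 of replicate 2 met no kept stretch of the other library, and 37 and 19 of these overlapped a 3-summit stretch there.

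The series profiled open chromatin in the prostate cancer line LNCaP, labelled WT, with 2 libraries, and in LNCaP-resistance cells treated with enzalutamide, with 2 libraries. LNCaP was derived from a lymph node metastasis and depends on androgen for growth, and enzalutamide is an antiandrogen drug. According to the study's methods, resistant sublines were made by keeping LNCaP in hormone-depleted serum and then in rising concentrations of the drug. The labels give no subline number, no dose for these libraries and no untreated resistant cells. Resistance, the presence of the drug and growth in hormone-depleted serum therefore cannot be told apart. The labels number the libraries of each cell type repeat 1 and repeat 2 and do not say whether these were separate cultures. The lists held 117245 and 107344 summits for LNCaP and 70866 and 45618 for the resistant cells. They give no read counts, so depth is unknown. Taking 20000 distal summits used 24.5% and 27.3% of the distal summits of the LNCaP libraries but 47.6% and 82.8% of those of the resistant libraries, down to percentiles 71.1, 68.3, 44.5 and 16.5 of each list. A percentile here gives the rank of a summit by score within its own list, with 100 the strongest, so it compares ranks in lists of unequal length. All 10 luminal markers examined, KLK3 and HOXB13 among them, had a summit within 3 kb of a gene end in all 4 libraries, although for KLK3 it ranked at percentiles 4.79 and 3.46 in LNCaP and at 82.7 and 60.6 in resistant cells. Of the 3 basal markers, KRT14 had a summit in all 4 libraries, from percentile 82.6 to 94.2, TP63 in LNCaP replicate 1 alone and KRT5 in none. The leukocyte gene PTPRC had none, while 3 of the 4 genes listed for stroma, endothelium and blood had 1 in every library.

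Distal accessible sites include enhancers, which transcription factors bind to raise the activity of genes that may lie far away on the same chromosome. Groups of closely spaced enhancers are often found at genes that matter to the identity of a cell, and prostate luminal cells use them at sites bound by FOXA1 and HOXB13. ATAC-seq reads where a transposase can enter the DNA. It does not show which factor is bound or which gene is served.

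Of the 33 annotated RefSeq start windows that lay in clusters, 11 held a taken summit of both resistant libraries. These starts lie inside longer genes or gene groups, so that the distance to the outer gene ends did not remove them. The sequences of 5 of these windows are shown because they place a clustered summit on annotated sequence. SPRED2, DGKA, GSE1 and MAST3 had a taken LNCaP summit within 1 kb in at most 1 library, and SLC25A25 had 1 in both. Of the windows not shown, those of NHSL3, JAK1, USP54, LOC124904656 and DLGAP4 had 1 in both, and ZFP90 in LNCaP replicate 1 alone. The strongest summits in the USP54 window ranked higher in LNCaP, at 99.996 and 99.978, than in resistant cells, at 96.4 and 85.0. The 5 shown were picked after their values were seen. Each runs from 250 bases before to 30 after the start, 5′ to 3′ on the strand of the gene, from RefSeq (GRCh38.p14), and the capitals mark the 10 bases on either side of each resistant summit.
SPRED2, chr2:65366749-65367028, - strand: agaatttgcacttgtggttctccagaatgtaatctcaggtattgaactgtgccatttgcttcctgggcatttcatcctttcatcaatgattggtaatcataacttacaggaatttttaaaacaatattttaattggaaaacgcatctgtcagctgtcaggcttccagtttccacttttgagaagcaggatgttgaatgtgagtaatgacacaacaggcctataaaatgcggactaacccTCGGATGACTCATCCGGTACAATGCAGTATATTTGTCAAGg
DGKA, chr12:55931160-55931439, + strand: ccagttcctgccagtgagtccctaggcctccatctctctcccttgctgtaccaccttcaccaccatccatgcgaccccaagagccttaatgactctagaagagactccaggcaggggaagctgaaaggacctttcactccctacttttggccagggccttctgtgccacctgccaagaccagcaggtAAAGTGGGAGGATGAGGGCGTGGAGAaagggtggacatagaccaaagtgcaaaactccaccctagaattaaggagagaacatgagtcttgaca
GSE1, chr16:85613072-85613351, + strand: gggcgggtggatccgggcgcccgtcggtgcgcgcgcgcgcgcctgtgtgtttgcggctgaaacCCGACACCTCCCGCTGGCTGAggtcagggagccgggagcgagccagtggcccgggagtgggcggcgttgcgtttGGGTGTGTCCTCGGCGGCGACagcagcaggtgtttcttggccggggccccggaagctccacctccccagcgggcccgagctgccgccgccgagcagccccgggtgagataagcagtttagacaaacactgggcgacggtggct
MAST3, chr19:18117737-18118016, + strand: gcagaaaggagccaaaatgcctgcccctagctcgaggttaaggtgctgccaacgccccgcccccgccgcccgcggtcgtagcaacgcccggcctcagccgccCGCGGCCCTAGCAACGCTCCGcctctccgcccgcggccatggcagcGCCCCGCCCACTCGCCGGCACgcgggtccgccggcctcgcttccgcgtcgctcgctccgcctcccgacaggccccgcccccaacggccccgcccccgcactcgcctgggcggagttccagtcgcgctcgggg
SLC25A25, chr9:128098257-128098536, + strand: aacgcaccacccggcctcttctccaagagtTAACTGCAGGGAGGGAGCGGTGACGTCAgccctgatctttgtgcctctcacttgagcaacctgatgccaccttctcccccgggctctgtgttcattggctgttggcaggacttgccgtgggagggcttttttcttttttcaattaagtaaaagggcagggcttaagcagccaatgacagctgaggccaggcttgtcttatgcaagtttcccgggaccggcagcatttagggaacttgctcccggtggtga
SPRED2, an inhibitor of Ras and ERK signalling, had the window poorest in G and C of the 11, at 39.3% against a median of 58.2% over 35116 windows. The summit of LNCaP-resistance replicate 1 lay on a TGANTCA match, the letters that AP-1 factors are known to bind, which 7.35% of all windows held on either strand. The LNCaP libraries had 67.3 and 76.1 as the percentile of the strongest summit in that window and the resistant libraries 84.7 and 74.5, so the groups overlapped. MAST3, which encodes a protein kinase, had a window with 77.1% G and C and 8 matches to GGGCGG, letters found in 44.1% of windows. Its window had percentiles 42.4 and 22.1 in LNCaP and 67.2 and 37.7 in resistant cells, which overlapped. GSE1, a component of histone deacetylase complexes, had 65.6 and 34.6 in LNCaP and 71.4 and 86.5 in resistant cells, which did not overlap. DGKA, diacylglycerol kinase alpha, had no LNCaP summit in the window, 1 of LNCaP replicate 1 at percentile 24.9 within 500 bp, and percentiles 55.6 and 51.3 in resistant cells. Its window held 1 match to AGAACA, half-site letters of steroid receptors, found in 13.8% of windows. SLC25A25, a mitochondrial carrier of ATP and phosphate, had 81.2 and 72.3 in LNCaP and 88.8 and 87.2 in resistant cells, which did not overlap. Neither TGTTTAC, a forkhead motif held by 3.25% of windows, nor TGANTCA was found in the windows of the last 4 genes. Near any annotated start, within 1 kb, lay 5.79% and 5.81% of the clustered resistant summits, and 4.75% and 4.79% of the taken resistant summits elsewhere.

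LNCaP had summits in every cluster, but fewer of its high-scoring ones. Among the 20000 taken per library, LNCaP had 119 and 126 summits in the 70 clusters and the resistant libraries 328 and 327. Per cluster the LNCaP mean ranged from 0 to 4 with a median of 1.5, and the resistant mean from 4 to 9.5 with a median of 4. Both LNCaP libraries lay below both resistant libraries in 70 of 70 clusters, a direction that the choice of clusters largely fixes. Over all 28925 stretches the resistant libraries lay above in 18.3% and below in 20.6%, and among the 260 stretches holding 4 or more summits of at least 1 library in 50.8% and 22.3%. LNCaP replicates 1 and 2 had no taken summit in 8 and 7 clusters, and 4 clusters had none in either. LNCaP itself had 4 or more taken summits in 4 and 7 clusters.

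In the whole summit lists the gap in counts was smaller, but the lists are of unequal length. They held 117245 and 107344 summits for LNCaP and 70866 and 45618 for the resistant cells, so the counts are not on equal terms. LNCaP had 305 and 294 summits in the clusters, a mean of 4.36 and 4.20 per cluster, and the resistant libraries 398 and 344, a mean of 5.69 and 4.91. Every cluster had at least 2 summits in LNCaP replicate 1 and at least 1 in replicate 2, and 44 and 41 clusters had 4 or more. Both resistant libraries lay above both LNCaP libraries in 29 clusters and below them in 1, and the groups overlapped in 40. Of the 260 stretches above, 18.5% lay above and 31.2% below in the same count. Within repeat 1 the resistant library had more summits in 51 clusters, fewer in 5 and as many in 14, and within repeat 2 it had more in 44, fewer in 17 and as many in 9. In 18 clusters the LNCaP libraries together had at least as many summits as the resistant ones. With 2 libraries against 2, an exact permutation test cannot give a two-sided p below 0.333, and no test was made between the cell types.

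**Figure D1:**
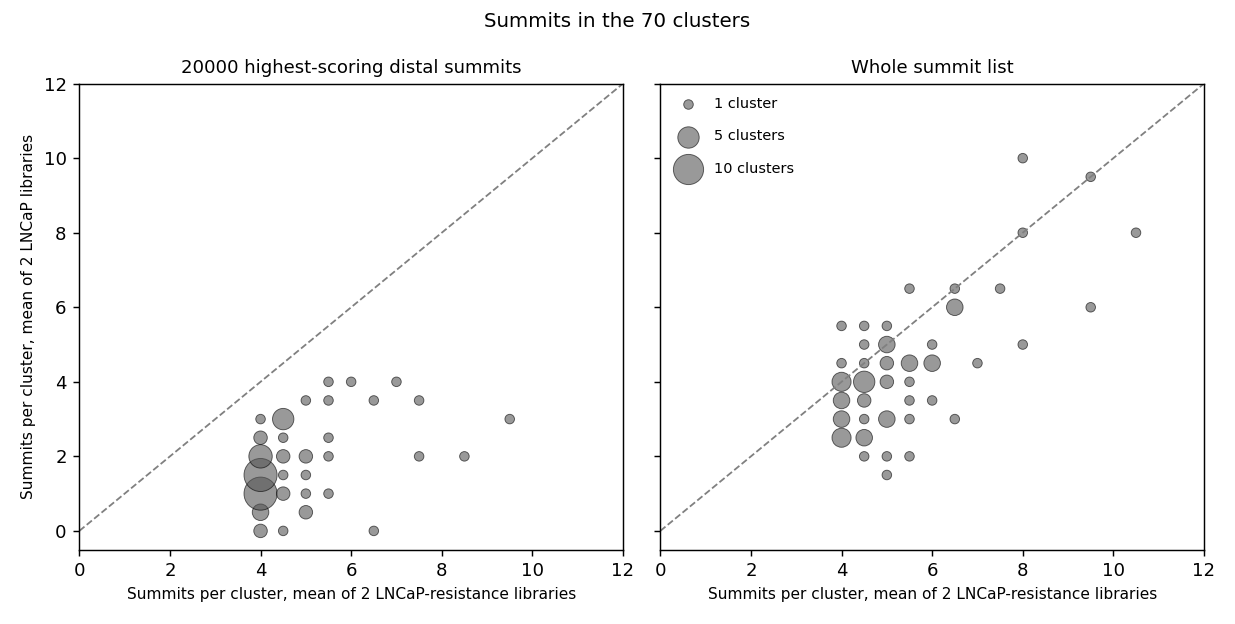
Summits per cluster in the 70 clusters, as the mean of the 2 LNCaP libraries (vertical axis) against the mean of the 2 LNCaP-resistance libraries (horizontal axis), among the 20000 highest-scoring distal summits of each library (left) and in the whole lists (right). Disc area is the number of clusters and the dashed line marks equal means. All discs lie under the line on the left, where the rule applied, and 18 clusters lie on or above it on the right.

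The cluster with the most summits lay over LTBP4 (chr19:40597143-40652193), which encodes an extracellular matrix protein that binds latent TGF-beta, and reached past the end of the gene. It held 9 and 10 taken summits in resistant cells and 2 and 4 in LNCaP, and 11 and 10 against 8 and 8 in the whole lists. The groups did not overlap on either count. The summits 16.7 kb from its start had percentiles 78.7 and 61.1 in resistant cells and no LNCaP summit at that place.

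A cluster of 57427 bp (chr6:12314363-12371789) began 17169 bp beyond EDN1, the gene of the secreted peptide endothelin-1, and over the pseudogene SUMO2P12. It had 9 and 8 taken summits in resistant cells and 2 in each LNCaP library. Its strongest sites, 9.9 and 17.7 kb from the start in LNCaP-resistance replicate 1, were among the strongest in all 4 libraries, with LNCaP percentiles from 95.5 to 99.2. The other LNCaP summits there ranked no higher than percentile 69.8. At the annotated EDN1 start at 12288019, no LNCaP summit lay within 1 kb, and the resistant summits had percentiles 76.2 and 77.4. At the start at 12290014 the percentiles were 63.7 and 63.0 in LNCaP and 70.4 and 24.7 in resistant cells, which overlap. The start at 12290361 had the same summits except in LNCaP-resistance replicate 2, which had none there.

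The next 4 clusters in number of summits lay near DNAJB12 and over PRRC2B, LMNA and FIRRE. The cluster 4356 bp from DNAJB12, an Hsp40 co-chaperone of the endoplasmic reticulum (chr10:72292412-72328507), held 7 and 8 summits in resistant cells and 2 in each LNCaP library. One of its sites had percentiles 95.6 and 96.1 in resistant cells and 45.6 and 29.4 in LNCaP, while another had 59.1 and 32.6 in resistant cells and 94.6 and 93.6 in LNCaP. Within 1 cluster, sites thus ranked higher and lower. PRRC2B (chr9:131383375-131423277) had 7 and 8 against 2 and 5 taken, and in the whole lists 10 and 9 in resistant cells and 10 and 9 in LNCaP. LMNA, the gene of the nuclear lamins A and C (chr1:156090922-156130482), had 7 and 7 against 4 and 4, and 8 and 7 against 7 and 6 in the whole lists. FIRRE, a long non-coding RNA of the X chromosome that takes part in nuclear organisation (chrX:131747347-131792127), had 6 and 7 against none in LNCaP. The LNCaP lists held 3 summits each in it that were not taken. Their highest percentiles were 70.6 and 58.6, against 78.1 and 65.8 in resistant cells, which overlap. The last summits taken stood at percentiles 71.1 and 68.3 in LNCaP and at 44.5 and 16.5 in resistant cells.

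The rest of the 12 clusters with most summits had 5 to 8 in each resistant library. ATXN7L1, a paralogue of the SAGA subunit gene ATXN7, had 5 and 8 taken summits against 4 and 3 in LNCaP, but 8 and 8 against 12 and 8 in the whole lists. MACF1, a linker of microtubules and actin, had 6 and 6 against 4 and 4, and DLGAP4, a scaffold gene of synapses, had 6 and 5 against 4 and 4. GNG7, a G protein gamma subunit, had 6 and 5 against 2 and 3. The cluster at KRT80, an epithelial keratin, had 5 and 6 against 2 and 2, with whole-list counts of 6 and 7 against 6 and 6. It met the gene, which runs from 52168996, only at its far end (chr12:52139653-52172249). All 5 taken summits of LNCaP-resistance replicate 1 lay outside the gene, the last at 52164127. In these 5 clusters the taken counts of the groups did not overlap, as in every cluster. In the whole lists they overlapped or met in all 5.

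ELF3, an ETS factor of epithelial cells and 1 of 16 luminal transcription factor genes listed, was the nearest protein-coding gene of a cluster 6014 bp away (chr1:202023197-202058319). That cluster had 6 and 5 taken summits in resistant cells and 3 and 4 in LNCaP. Of its 5 sites found in both resistant libraries, 4 had both resistant percentiles above both LNCaP ones, such as 97.7 and 96.1 against 74.2 and 86.1. The site farthest from ELF3 ranked lower in resistant cells, at 95.6 and 93.6 against 99.2 and 99.5. The outer start of ELF3 had percentiles 98.2 and 98.2 in resistant cells and 95.5 and 98.7 in LNCaP, which overlap.

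**Figure D2:**
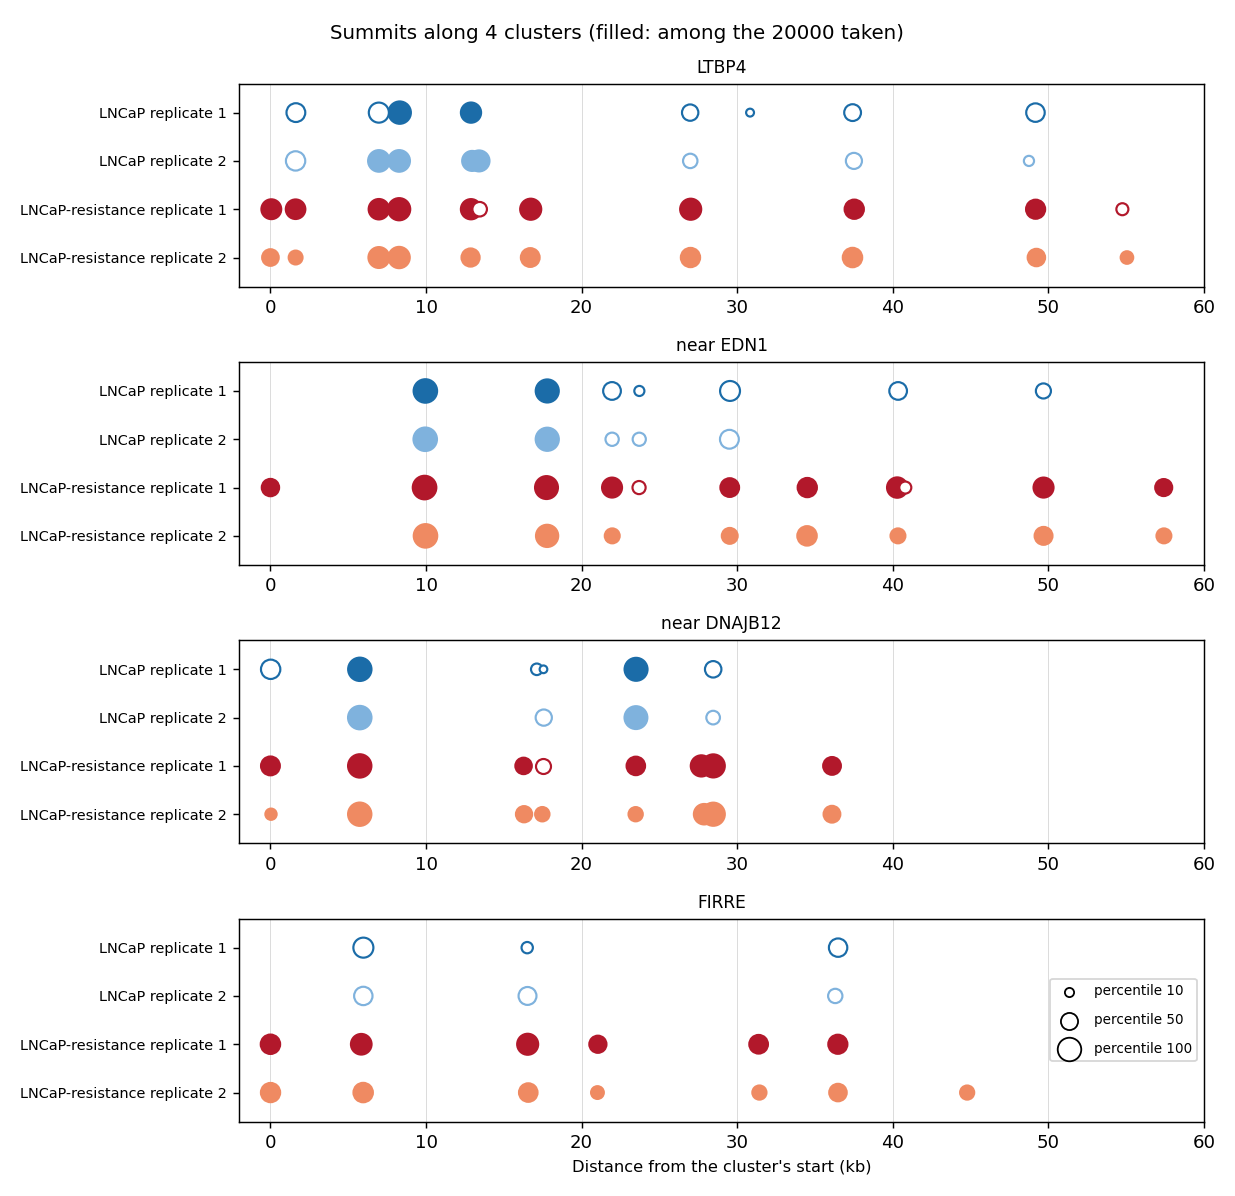
Summits along the clusters over LTBP4, near EDN1, near DNAJB12 and over FIRRE. Each point is 1 summit of the library on the vertical axis, the horizontal axis is the distance from the start of the cluster in kb, the size grows with the percentile within the library, and filled points were among the 20000 taken. LNCaP points stand at many of the resistant positions, mostly as open symbols, and at FIRRE all 3 LNCaP summits of each library are open.

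By the difference of the mean taken counts, LNCaP lay farthest below the resistant cells at LTBP4, EDN1, FIRRE and DNAJB12, given above, and in 4 other clusters. SPATA13, which encodes a guanine nucleotide exchange factor, had 6 and 5 taken summits in resistant cells against 1 and 1. MAN1C1, a Golgi mannosidase gene, had 5 and 5 against 1 and 0. SPRED2 had 5 and 5 against 0 and 1. SBNO2, which encodes a transcriptional coregulator, had 4 and 5 against 0 and 0. In the whole lists these 4 had 5 to 7 summits in resistant cells and 2 to 4 in LNCaP, without overlap. MAN1C1 had 3 sites with no LNCaP summit within 1000 bp in either library, as did PPFIA3, named here after its values were seen, and no cluster had more. The clusters with no taken LNCaP summit were those at FIRRE, SBNO2, GPATCH2 and the long non-coding LOC105369325 near CD6, the last 2 also named after their values were seen.

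At the other end, by the same difference of means, LNCaP came closest to the resistant counts at NHSL3 with 4 and 4 against 3 and 3, at DLGAP4, and in 4 other clusters. The cluster 9379 bp from ACBD3, a Golgi protein gene, had 5 and 5 against 3 and 4. THRAP3, a splicing and coactivator protein gene, and USP54, of the ubiquitin-specific protease family, each had 5 and 4 against 3 and 3. The cluster 11226 bp from INTS7, an Integrator subunit gene, had 4 and 5 against 3 and 3. By the same difference, 4 clusters that the rule did not name, at PRKCA and near FHDC1, NFE2L3 and GALNTL5, were as close as all but NHSL3. One NHSL3 site had percentiles 81.1 and 62.1 in resistant cells and no LNCaP summit within 250 bp, but taken LNCaP summits at percentiles 78.2 and 89.7 lay 0.64 kb from the start of the cluster, where that site stands. Another had 55.8 and 26.1 against 99.4 and 99.6 in LNCaP.

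**Figure D3:**
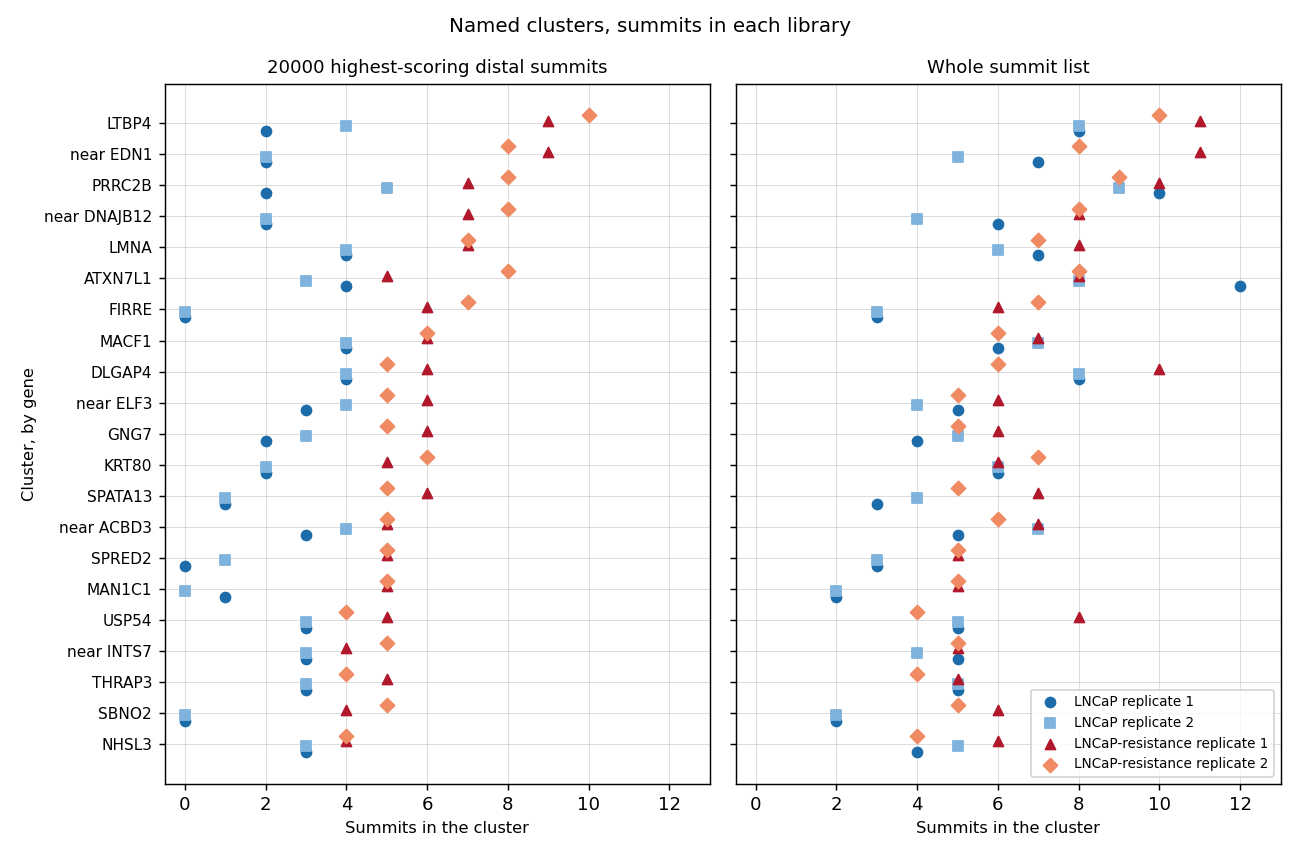
Summits in each of the 4 libraries for the 21 clusters named by their counts, among the 20000 highest-scoring distal summits (left) and in the whole lists (right). Each row is a cluster, called by the gene it overlaps or lies near, and each symbol is 1 library. The groups are apart in every row on the left and overlap on the right in rows such as ATXN7L1, PRRC2B and KRT80.

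To compare single positions, a site was defined as a taken summit of LNCaP-resistance replicate 1 with a taken summit of replicate 2 within 250 bp. The clusters held 284 sites, 2 to 9 each. Of these, 208, or 73.2%, had a summit in both LNCaP lists within 250 bp, 24 in 1 and 52, or 18.3%, in neither. Outside the clusters the shares were 75.6% and 14.6% of 14470 sites. Both resistant percentiles lay above both LNCaP percentiles at 111 sites, or 39.1%, with an absent summit counted as percentile 0, and below at 77, or 27.1%. Outside the clusters these shares were 31.3% and 37.6%. The median percentiles of the clustered sites were 63.1 and 60.9 in LNCaP and 71.4 and 56.3 in resistant cells, against 70.9 and 68.3 in LNCaP and 71.0 and 53.6 in resistant cells for sites elsewhere. The 2 resistant libraries thus spanned the LNCaP values, and the clustered sites stood lower in LNCaP than sites elsewhere. The resistant scores chose the sites, so these values are a description.

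Sites without an LNCaP summit within 250 bp were spread over 36 clusters, with 1 in 22 clusters, 2 in 12 and 3 in 2. The count depended on the window, in a comparison added after seeing the data. Of the 52, 9 had an LNCaP summit within 500 bp and 19 within 1000 bp, which left 33 sites, or 11.6%, against 11.5% outside the clusters. The highest-ranking of the 52 lay in NFIA, a nuclear factor I transcription factor gene, at position 61143275 of chromosome 1, with percentiles 89.4 and 91.6 in resistant cells. LNCaP summits at percentiles 95.6 and 97.5 lay within 500 bp of it, so LNCaP was not without a summit there. Its nearest neighbour in the cluster, at 61141847, had 71.9 and 24.1 in resistant cells and no LNCaP summit within 1000 bp. The neighbour at 61133171 had 54.1 and 36.2 in resistant cells against 84.7 and 74.4 in LNCaP. At 61149476 the values were 49.0 and 18.5 in resistant cells against 81.1 and 62.4 in LNCaP. The site in DLGAP4 at position 36436333 of chromosome 20 had 87.1 and 70.2 in resistant cells, and the one at 52148690 of chromosome 12, in the KRT80 cluster, 81.7 and 61.1, and neither had an LNCaP summit within 1000 bp. In AHDC1, the site at 27557389 of chromosome 1 had 88.8 and 75.1 in resistant cells and 13.7 and 15.7 in LNCaP. In TACC2, a centrosome-associated protein gene, the site at 122044442 of chromosome 10 had 90.2 and 79.4 against 13.3 and 47.8. The DLGAP4, KRT80, AHDC1 and TACC2 sites were chosen after their values were seen.

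Clustered resistant summits were found in the LNCaP lists about as often as other distal resistant summits. Of the 328 in replicate 1, 75.9% (95% Wilson interval 71.0 to 80.2) had a summit within 250 bp in LNCaP replicate 1 and 72.9% (67.8 to 77.4) in LNCaP replicate 2, against 77.0% and 74.9% of taken summits outside the clusters. For the 327 of replicate 2 the shares were 75.2% (70.3 to 79.6) and 72.5% (67.4 to 77.0), against 74.8% and 72.1%. Each value outside lay within the interval of the value inside. The intervals cover counting error only and treat the summits of a cluster as independent, so they are too narrow to test equality. When only the 20000 taken LNCaP summits were searched, the shares were 36.0% to 38.7% in the clusters and 41.0% to 44.1% outside. There, LNCaP-resistance replicate 1 in LNCaP replicate 1 had an interval of 31.0% to 41.3%, against 43.5% outside. The other intervals of that search held the value outside. Between the resistant libraries the shares were 88.1% and 93.6% in clusters and 77.7% and 90.4% outside, a difference that the requirement of overlap between the 2 libraries favours.

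**Figure D4:**
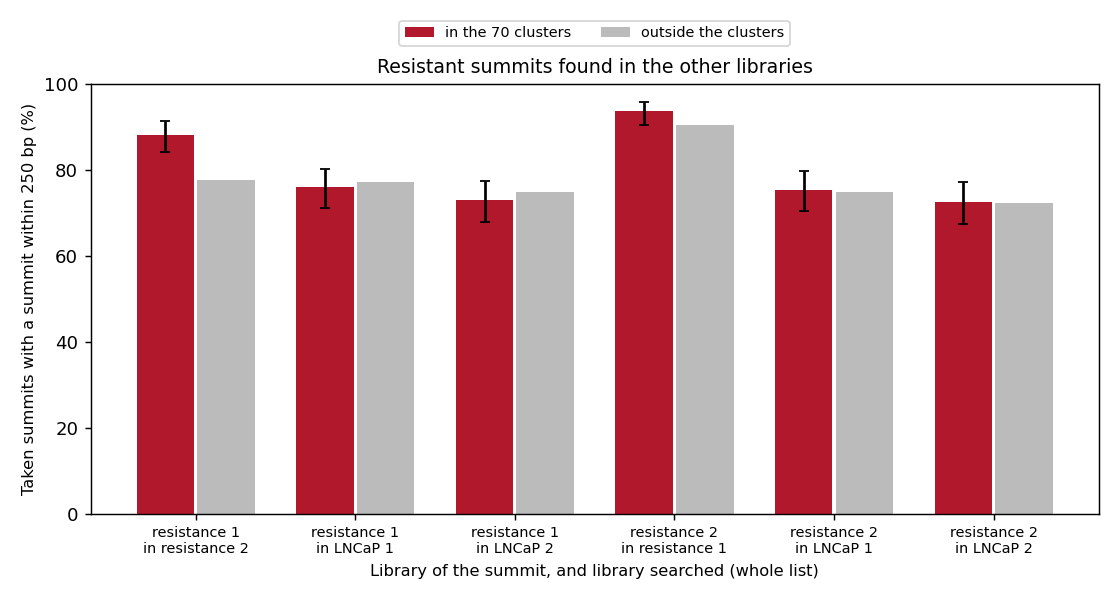
Percent of the taken summits of each LNCaP-resistance library with a summit within 250 bp in the whole list of another library, for summits in the 70 clusters (red, with 95% Wilson intervals) and outside them (grey). For the 4 pairs with an LNCaP library, the red and grey bars lie between 72.1% and 77.0%.

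Built by the same rule, LNCaP had 30 clusters, from 54 and 63 kept stretches, and the 2 sets hardly met. The cluster at LMNA was the 1 of 70, or 1.43%, that overlapped an LNCaP cluster, and 1 of the 30 LNCaP clusters, or 3.33%, was overlapped. Without LNCaP replicate 1, or without replicate 2, the kept stretches of the remaining library overlapped 5.71% of the clusters. The share also depended on the depth of list taken. When all distal summits were used, LNCaP had 1687 clusters, and 54 of the 70, or 77.1%, overlapped 1 of them, which was 3.20% of the LNCaP set.

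Of the 70 clusters, 43 overlapped a protein-coding gene and 34 lay wholly inside 1, 12 overlapped only a non-coding gene or pseudogene, and 15 overlapped no gene. The 44 protein-coding genes overlapped are 0.22% of the 20037 annotated. They were long, with a median of 112 kb against 24.1 kb for all protein-coding genes. Leaving out 3 kb at each gene end favours long genes by construction. BCL9L, which encodes a coactivator of beta-catenin, held the 1 microRNA gene, MIR4492. The other genes overlapped were 8 long non-coding RNA genes, FIRRE among them, and pseudogenes. The 27 clusters outside protein-coding genes lay a median of 15031 bp from the nearest 1, from 3229 to 289812 bp. Chromosome 1 carried 14 of the 70 clusters, with 10.3% and 10.2% of the taken resistant summits, and chromosome 19 carried 7, with 3.56% and 3.48%. The X chromosome had 2 and chromosomes 8, 14, 21, 22 and Y had none.

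Lists of genes drawn up for prostate cancer and its resistance were compared with the clusters, which overlapped 0.22% of all protein-coding genes. Of 20 androgen-responsive genes, ZBTB16 was overlapped, which encodes the transcription factor PLZF and is induced by androgen. Its cluster (chr11:114072270-114086157) had 4 and 4 taken summits in resistant cells and 1 and 3 in LNCaP, and the whole lists, with 4 and 4 against 3 and 5, overlapped. Of the 16 luminal transcription factors, NFIA was overlapped, with 5 and 4 taken summits against 3 and 2, and ELF3 was the nearest gene of 1 cluster. FOXA1, HOXB13 and the other 12 had none. No cluster overlapped, or had as its nearest protein-coding gene, any of 16 neuroendocrine and neural regulators such as INSM1 and SOX2, or any of 14 neuroendocrine markers such as SYP and CHGA. The same held for 18 basal, stem and plasticity genes, 20 growth factor, steroid receptor and resistance genes including NR3C1 and EGFR, 13 AP-1 and related factors, and 12 SWI/SNF subunits.

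The outer starts of the genes, which the rule left out, give a readout that did not choose the clusters. Of the 44 overlapped protein-coding genes, 37 had an annotated start among the 35116 windows used here. ZBTB16, KRT80 and BCL9L did not. For the 37, the strongest summit within 1 kb of the outer start was ranked in each library. Both resistant percentiles lay above both LNCaP percentiles for 8 genes and below for 4, and the groups overlapped for 25. Over 15842 protein-coding genes the shares were 21.0% above and 15.1% below, which for 37 genes is close to these counts. GNG7 had percentiles 87.9 and 77.4 in resistant cells and 53.5 and 59.0 in LNCaP. SPATA13 had 65.7 and 58.1 against 33.2 and 38.5, SPRED2 65.9 and 55.1 against 24.2 and 44.6, and the co-chaperone gene DNAJB6 76.7 and 79.7 against 57.1 and 56.4. The other 4 higher genes were PPFIA3, LMNA, ATXN7L1 and PRRC2B. THRAP3 was lower at its outer start, with 64.1 and 46.5 against 94.8 and 95.1, as were USP54 and the pair PYM1 and DGKA, whose starts share a summit. At the annotated THRAP3 start at 36224443, however, the percentiles were 95.9 and 97.3 in resistant cells and 94.2 and 97.4 in LNCaP, which overlapped. LTBP4, with 72.2 and 59.8 against 63.6 and 65.4, overlapped between groups. Among the 23 nearest genes of the other clusters that had such a start, 5 were above, PTMA, FGFRL1, FEM1C, SLC45A1 and DNAJB12, and 2 below, INTS7 and MFAP3. At the annotated FGFRL1 start at 1012464, only LNCaP replicate 1 had a summit within 1 kb, at percentile 0.715. MACF1 and DLGAP4, which have other annotated starts, had no summit at the outer start in any library.

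**Figure D5:**
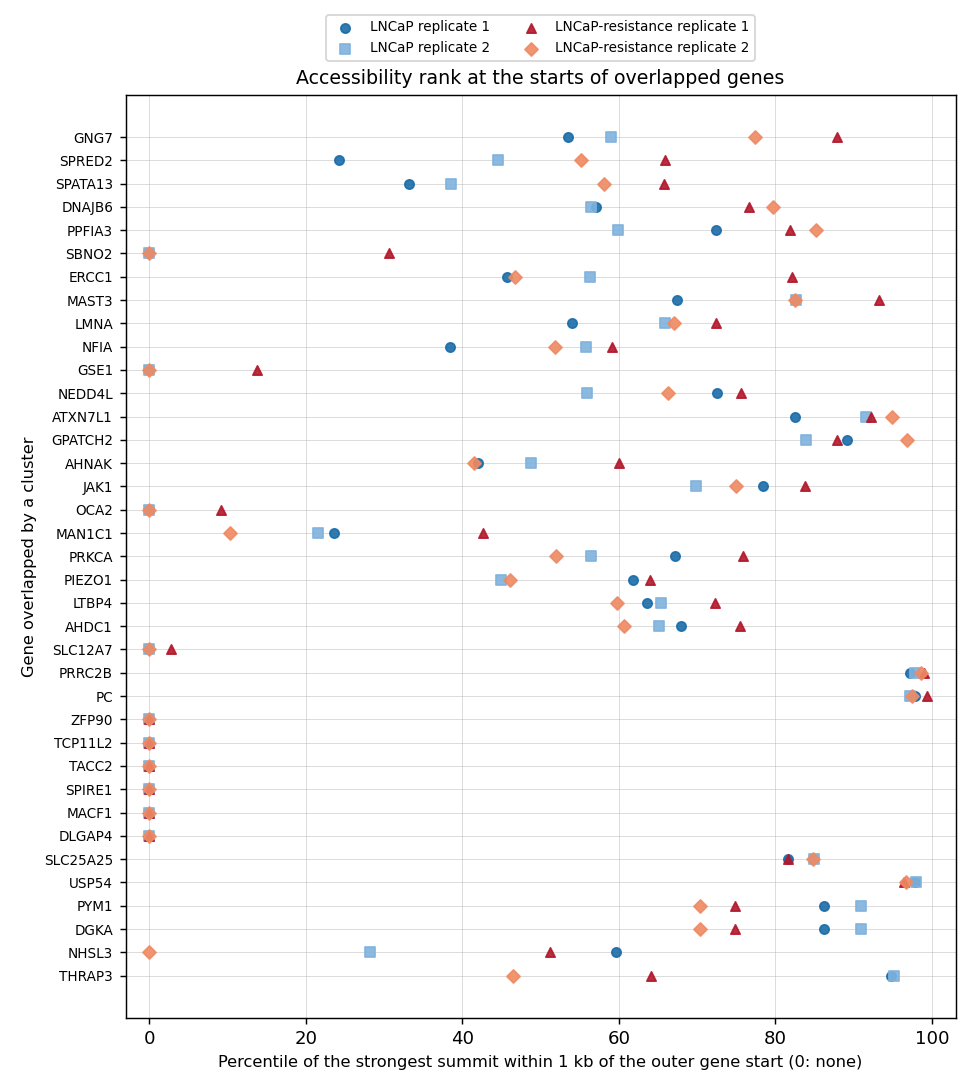
Percentile, within each library, of the strongest summit within 1 kb of the outer start (0 where there is none). Shown are the 37 protein-coding genes that a cluster overlaps and that have an annotated start among the windows used. Genes are ordered by the difference of the group means, with GNG7 at the top and THRAP3 at the bottom. Both resistant symbols lie to the right of both LNCaP symbols for 8 genes and to the left for 4.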

How the data were processed

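For each ATAC-seq library the authors deposited the summits of its peaks, and the score of a summit looks like a −log10 of a p-value or q-value, since none lies under 1.30, the value for 0.05. Which it is was not given in the sources used here. Per the labels, the submitters' processing notes name the build hg38 and the tools Bowtie2 2.2.5, SAMtools 1.6, MACS2 2.2.6, deepTools 3.5.2, HOMER 4.11 and edgeR 3.22.5. Depth is unknown. Scores were used only to rank summits within a library. Gene ends, starts and sequences came from RefSeq tables of GRCh38.p14 (59679 genes on the main chromosomes). Summits with equal scores at the last place taken were 4 and 6 in LNCaP and 711 and 1554 in the resistant libraries. They were taken in order of chromosome name, sorted as text, and then of position. Members and gene lists were chosen with earlier results of these data known. Named clusters were the 12 with most resistant summits, the 8 and 6 where LNCaP lay lowest and highest against the resistant mean, and those at listed genes. The computation was tested on simulated lists. Python 3.11.15, numpy 2.4.6 and pandas 2.3.3 were used. Some listed genes are not reported here by name.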

Additional observations from a re-analysis of the deposited data

How the results depend on the processing

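The number of clusters followed the rule. It was 6 with 10000 summits per library, 31 with 15000, 3 with stitching at 5 kb, 244 at 25 kb, 290 with 3 or more summits, 6 with 6 or more, and 170 when either library sufficed. Under the same settings, in that order, LNCaP lay below in 6, 31, 2, 222, 267, 6 and 132 clusters, and in 29 when all summits or all distal summits were counted. The genes overlapped were then 3, 20, 3, 229, 190, 3 and 116, with 70 at 1 kb from a gene end and 71 with nearest genes added. The median LNCaP count was 1.25 with 10000 summits or either library, 1 with 3 or more, 2.5 with 6 or more, 2 at 5 kb, at 25 kb and at 3 kb from every annotated start, and 4 with all summits or all distal summits counted. The share of summits found in LNCaP was 67.8% within 100 bp, 79.3% within 500 bp and 37.5% among 20000. The share of clusters overlapping an LNCaP cluster was 0% at 10000 summits, at 6 or more, at 5 kb and at 3 kb from every start, 13.8% with 3 or more, 8.82% with either library, 20.1% at 25 kb and 77.1% with all distal LNCaP summits. It was 3.80% at 1 kb from a gene end. Leaving out 1 resistant library gave 112 to 128 clusters, 111 to 128 with fewer LNCaP summits and 73 to 86 genes, because a lone resistant library needs no overlap. Leaving out an LNCaP library left 70 of 70 with fewer LNCaP summits, as the 70 of 70 over all libraries requires. Over the 4 libraries left out in turn, the median LNCaP count was 1 to 2 and the overlap with LNCaP clusters 1.56% to 5.71%. The sites without an LNCaP summit fell from 52 to 33 with a window of 1000 bp. Of 98 alternatives, 42 stayed within 1.5 times for counts, the spread between the LNCaP libraries for the median and the share found, or the 95% Wilson interval for the overlap share, 0.253% to 7.66%. Both treatments of tied summits, which gave 69 clusters with them left out and 70 with all taken, the distance from every annotated start, the wider windows for sites and the use of all distal LNCaP summits were added after seeing the data. Within repeat 1 and within repeat 2, LNCaP had fewer taken summits in 70 of 70 clusters. These counts, and those with an LNCaP library left out, were fixed by the 70 of 70 over all libraries. They are among the 42 alternatives but add no support. No fit with a replicate block was made, since no test was fitted. Without read counts, an absent LNCaP summit may be one that fell below the caller's threshold.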
